A study of Mus musculus with 10 samples.

Results

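The 6 St6galnac sialyltransferases and the genes next to 2 of them on mouse chromosome 11 were described across 10 RNA-seq libraries of blood stem and progenitor cells with and without Dnmt3a. The set holds 9 genes of the 38086 gene IDs counted in both populations: St6galnac1 to St6galnac6, Mxra7, the non-coding gene BC018473 and the pseudogene Gm11735. BC018473, Gm11735, St6galnac1 and St6galnac2 were chosen by their measured levels, for being high in some KO libraries, so their KO against CTRL values are a description and no test of them is given. St6galnac3 to St6galnac6 entered as family members, and Mxra7 as a chromosome 11 neighbour.

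The study compared sorted bone marrow cells of C57BL/6 mice aged 12 months. LSK cells (lineage-negative, Sca1+, cKit+) hold the haematopoietic stem cells and multipotent progenitors, and GMP are granulocyte-macrophage progenitors. The 4 groups were LSK KO (3 libraries), LSK CTRL (2), GMP KO (3) and GMP CTRL (2). Libraries are named by genotype and title number, such as KO-178, and values of a group are given by rising number (LSK KO-1327, KO-1333, KO-1334). All mice carried floxed Dnmt3a alleles, which encode a de novo DNA methyltransferase. KO mice also carried Mx1-Cre, a transgene driven by an interferon-responsive promoter and switched on with poly(I:C). The labels give 5 poly(I:C) injections for every library, KO and CTRL alike. CTRL mice had no Cre, so Cre and deletion go together in every comparison. The floxed allele is removed cell by cell, and in bulk RNA more expressing cells and more RNA per cell cannot be told apart.

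St6galnac enzymes sit in the Golgi and attach sialic acid in alpha2,6 linkage to N-acetylgalactosamine, the first sugar of mucin-type O-glycans, or to the matching sugar of gangliosides. St6galnac1 makes the sialyl-Tn antigen, a short O-glycan best known from mucus-secreting epithelium and carcinomas, and St6galnac2 acts mainly on core 1 O-glycans. St6galnac3 and St6galnac4 add a further sialic acid to glycans that already carry one, and St6galnac5 and St6galnac6 act on gangliosides. Mxra7 was named for an association with matrix remodelling. Dnmt3a methylates cytosine in CG dinucleotides, and CG-rich promoters are normally free of methylation.

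On GRCm38 coordinates, 5 of the 9 genes form a run of 153 kb on chromosome 11. St6galnac2 (116675303 to 116694868, minus strand) comes first and is followed after 44193 bases by Gm11735 (116739062 to 116749833, minus strand, an unprocessed pseudogene). BC018473 (116752167 to 116759373, plus strand, biotype antisense) begins 2333 bases further on, St6galnac1 (116765025 to 116775507, minus strand) lies 5651 bases past its end, and Mxra7 (116803062 to 116828046, minus strand) follows after 27554 bases. BC018473 overlapped 0 other genes of the annotation used, despite its biotype. St6galnac4 (32587095 to 32599698) and St6galnac6 (32599709 to 32620806) stand head to tail on the plus strand of chromosome 2, and St6galnac5 (152817081 to 152982246) and St6galnac3 (153198266 to 153725174) lie on the minus strand of chromosome 3.

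RefSeq promoters (build GRCm38.p6, 250 bases before to 50 bases after the start) were found for 4 of the 9 genes, and 1 of each is shown because CG is the sequence that Dnmt3a methylates and the 4 differ widely in it. Each is written 5′ to 3′ on the gene's own strand with every CG in capitals. The motif searched was CG, which reads the same on both strands and cannot overlap itself. They span chr11:116827997-116828296 (Mxra7, minus strand), chr3:153725084-153725383 (St6galnac3, minus strand), chr2:32586828-32587127 (St6galnac4, plus strand) and chr2:32599459-32599758 (St6galnac6, plus strand).
Mxra7: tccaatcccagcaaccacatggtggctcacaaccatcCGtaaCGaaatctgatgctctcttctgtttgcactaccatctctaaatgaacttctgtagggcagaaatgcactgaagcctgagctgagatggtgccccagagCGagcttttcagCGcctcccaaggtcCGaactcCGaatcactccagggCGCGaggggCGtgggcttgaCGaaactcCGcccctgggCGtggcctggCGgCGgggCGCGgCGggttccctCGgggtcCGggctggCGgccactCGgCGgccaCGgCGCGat
St6galnac3: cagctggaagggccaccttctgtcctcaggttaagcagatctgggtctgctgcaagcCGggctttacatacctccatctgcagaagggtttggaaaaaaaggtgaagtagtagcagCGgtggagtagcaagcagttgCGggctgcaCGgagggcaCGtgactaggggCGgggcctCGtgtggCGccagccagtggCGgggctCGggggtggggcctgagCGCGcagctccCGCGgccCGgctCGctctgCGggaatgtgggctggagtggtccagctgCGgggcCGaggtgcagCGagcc
St6galnac4: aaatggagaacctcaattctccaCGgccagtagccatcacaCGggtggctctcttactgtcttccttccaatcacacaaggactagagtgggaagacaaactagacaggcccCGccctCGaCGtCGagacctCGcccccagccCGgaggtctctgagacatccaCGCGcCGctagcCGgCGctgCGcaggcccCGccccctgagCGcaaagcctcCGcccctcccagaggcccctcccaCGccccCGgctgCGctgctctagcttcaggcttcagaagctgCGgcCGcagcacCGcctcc
St6galnac6: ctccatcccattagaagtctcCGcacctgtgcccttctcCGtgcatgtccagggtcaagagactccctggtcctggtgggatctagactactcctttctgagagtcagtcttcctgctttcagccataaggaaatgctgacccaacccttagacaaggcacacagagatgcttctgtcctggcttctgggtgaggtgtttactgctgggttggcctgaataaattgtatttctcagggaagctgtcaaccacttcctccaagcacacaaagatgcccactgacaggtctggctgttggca
The Mxra7 promoter shown held 25 CG, and 18.4% of the 32851 promoters of this length held as many or more. Another Mxra7 entry, at chr11:116828078-116828377, held 13 CG (37.9%). St6galnac4 held 23 (21.5% of promoters held as many or more) and St6galnac3 held 20 (26.5%), whereas St6galnac6 held 2 (85.9%). The median promoter held 7 CG, and 94.6% of promoters held at least 1. No DNA methylation was measured in the data used here.

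Depth was 29533371 to 30437981 reads on genes in LSK libraries and 93850256 to 122658636 in GMP libraries. Dnmt3a, the deleted gene, was at 64.0, 57.8 and 65.5 CPM (reads scaled to library size) in the LSK KO libraries against 169 and 168 CPM in LSK CTRL-1326 and CTRL-1330. GMP levels were 44.7 CPM in KO-178, 57.4 CPM in KO-179 and 17.7 CPM in KO-352 against 127 and 99.0 CPM in CTRL-346 and CTRL-350. KO was below CTRL in every library of both populations, although reads of the gene remained. The 12 LSK markers summed to 3434 to 4010 CPM in LSK KO and 3564 to 4167 CPM in LSK CTRL, against 1227 to 1298 CPM in GMP KO and 1210 to 1328 CPM in GMP CTRL. The 12 GMP markers summed to 3961 to 4419 CPM in LSK KO and 4181 to 4654 CPM in LSK CTRL, against 13476 to 18694 CPM in GMP KO and 17158 to 22614 CPM in GMP CTRL. KO-178, on which several values below rest, was not outside the range of the other GMP libraries in either marker sum. The description of KO-352 refers to LSK files and its title to GMP; its sums of 1248 CPM for LSK markers and 18694 CPM for GMP markers were those of the GMP libraries.

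BC018473 was high in all 3 LSK KO libraries and in 1 of 3 GMP KO libraries, and near or at 0 in the other 6 libraries. In LSK it was at 53.9, 59.6 and 62.8 CPM in the LSK KO libraries (1639, 1745 and 1942 reads) against 0 and 0.033 CPM in CTRL-1326 and CTRL-1330 (0 and 1 read). The LSK groups did not overlap, and the pooled ratio was 3490 with a 95% counting interval of 626 to 1.38e+05. In the GMP libraries it was at 636 CPM in KO-178, 0.126 CPM in KO-179 and 0.020 CPM in KO-352 (66512, 16 and 2 reads) against 0.065 and 0.115 CPM in CTRL-346 and CTRL-350 (6 and 11 reads). KO-178 stood 7050-fold above the pooled CTRL libraries (counting interval 4403 to 12104), whereas KO-179 and KO-352 pooled were at 0.88 of CTRL (0.429 to 1.82). The GMP groups therefore overlapped, and the mean of 212 ± 367 CPM (SD, n = 3) describes no single GMP KO library. Intervals and floors are for counting error alone, because the reads carry no molecular identifiers.

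By read count, BC018473 ranked 4787, 4455 and 4189 of 45513 genes in the LSK KO libraries and 167 of 38924 in GMP KO-178. Per kb of exon, a scale that allows levels of different genes to be compared, it was at 9.86, 10.9 and 11.5 CPM per kb in the LSK KO libraries and at 116 CPM per kb in GMP KO-178. In the same 4 libraries Dnmt3a was at 3.84, 3.47, 3.94 and 2.69 CPM per kb.

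**Figure D1:**
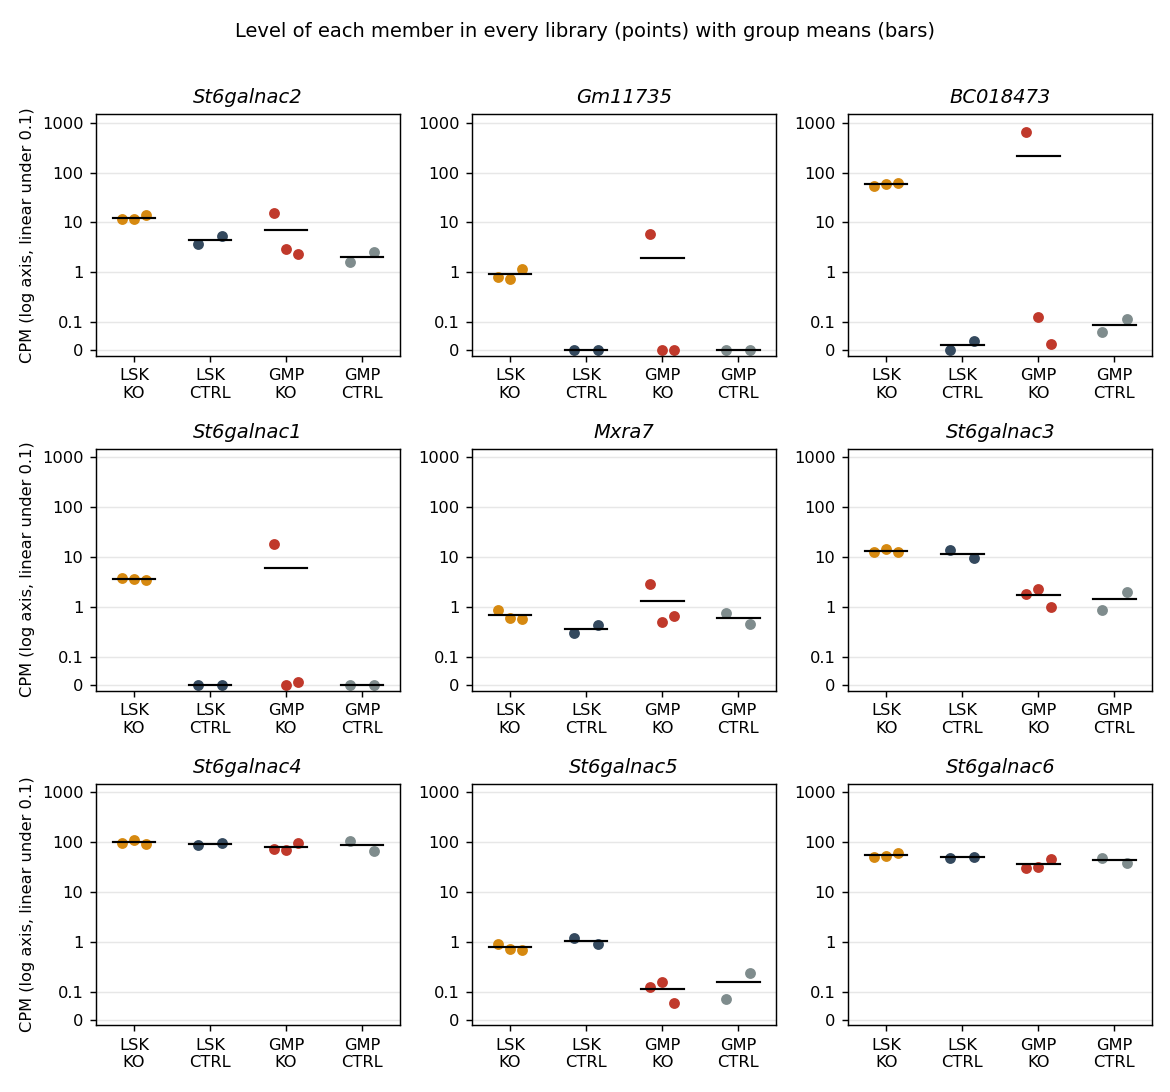
CPM (vertical log axis that is linear under 0.1) of each of the 9 genes by group, 1 point per library and a bar at the group mean. BC018473, St6galnac1 and Gm11735 sit near or at 0 except in the 3 LSK KO libraries and 1 GMP KO library, while St6galnac4 and St6galnac6 lie at similar levels in all 4 groups.

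St6galnac1, the sialyl-Tn synthase, showed the same 4 libraries. It was at 3.85, 3.62 and 3.53 CPM in the LSK KO libraries (117, 106 and 109 reads) and had 0 reads in both LSK CTRL libraries. Against a floor of 3 reads over the CTRL group this was at least 72.5-fold higher. In GMP it was at 18.5 CPM in KO-178 (1932 reads), had 0 reads in KO-179 and 1 read in KO-352, and had 0 reads in both CTRL libraries. KO-178 was at least 1160-fold higher than the GMP CTRL floor. The epithelial markers, of interest for a gene known from mucosa, summed to 61.2 to 66.7 CPM in LSK KO and 61.4 to 76.3 CPM in LSK CTRL, and Krt19 and Tff3 had 0 reads in all 10 libraries. In GMP these markers summed to 31.2 CPM in KO-178, within the range of 24.0 to 48.8 CPM of the other libraries. Single epithelial markers did move with genotype in GMP: Epcam was at 0.071 to 0.115 CPM in KO and 0.010 to 0.011 CPM in CTRL, Krt8 at 1.02 to 1.19 CPM in KO and 0.744 to 0.752 CPM in CTRL, and Krt18 at 19.8 to 22.1 CPM in KO and 15.1 to 16.2 CPM in CTRL. All 3 GMP KO libraries lay above both CTRL libraries for these genes, as they did for 16.5% of all genes tested in GMP. Cdh1, by contrast, was at 6.00 to 12.1 CPM in GMP KO and 7.06 to 32.7 CPM in GMP CTRL. Other marker sums moved with the groups too. In LSK the sums of KO lay below those of CTRL for the lists named next and overlapped for the others. Monocytes and macrophages had 159 to 188 CPM in KO and 198 to 230 CPM in CTRL. Mast cells, basophils and eosinophils had 94.2 to 129 CPM in KO and 139 to 162 CPM in CTRL. Stroma and endothelium had 158 to 164 CPM in KO and 169 to 185 CPM in CTRL. Dendritic and MHC class II genes had 672 to 934 CPM in KO and 953 to 1034 CPM in CTRL. Flt3, in that list and also an LSK marker, made much of this sum, with 457 to 585 CPM in KO and 459 to 582 CPM in CTRL. How often sums of other genes part in this way was not counted. In GMP the T and NK cell sum was 249 to 316 CPM in KO and 365 to 450 CPM in CTRL. The monocyte and macrophage sum there was 1578 to 1659 CPM in KO and 1471 to 1566 CPM in CTRL. GMP KO-178 had the lowest erythroid sum of the GMP libraries, 393 CPM against 472 to 718 CPM in the others. It also had the lowest mast cell, basophil and eosinophil sum, 897 CPM against 910.1 to 3973 CPM. Their part in the values of the run was not tested.

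Gm11735, the pseudogene between St6galnac2 and BC018473, was at 0.823, 0.752 and 1.16 CPM in the LSK KO libraries (25, 22 and 36 reads) and at 0 in both LSK CTRL libraries, at least 18.1-fold higher. GMP levels were 5.82 CPM in KO-178 (609 reads) and 0 in KO-179, KO-352 and both CTRL libraries. KO-178 was at least 366-fold higher than the GMP CTRL floor. In the GMP table reads aligning to several places are listed apart and not counted on genes, which can lower a pseudogene with close copies.

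St6galnac2, the core 1 O-glycan enzyme, was read in every library, unlike Gm11735, BC018473 and St6galnac1. It was at 11.6, 11.8 and 13.97 CPM in the LSK KO libraries against 3.78 and 5.27 CPM in LSK CTRL-1326 and CTRL-1330, a pooled ratio of 2.75 (2.41 to 3.15). In the GMP libraries it was at 15.7 CPM in KO-178, 2.96 CPM in KO-179 and 2.29 CPM in KO-352 against 1.60 and 2.56 CPM in CTRL-346 and CTRL-350. KO-178 was 7.51-fold above CTRL (6.72 to 8.41), and KO-179 and KO-352 pooled were 1.28-fold above it (1.12 to 1.45). These intervals leave out the spread between libraries, and KO-352 lay below CTRL-350. The LSK groups did not overlap, and in GMP only KO-179 and KO-178 lay above both CTRL libraries.

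Mxra7, at the far end of the run, was low throughout. It was at 0.889, 0.615 and 0.582 CPM in the LSK KO libraries (27, 18 and 18 reads) against 0.307 and 0.433 CPM in LSK CTRL-1326 and CTRL-1330 (9 and 13 reads). In GMP it was at 2.87 CPM in KO-178, 0.503 CPM in KO-179 and 0.667 CPM in KO-352 against 0.777 and 0.470 CPM in CTRL-346 and CTRL-350. The LSK groups did not overlap, and in GMP KO-178 alone lay above both CTRL libraries, 4.62-fold over their pooled level (3.72 to 5.77). Mxra7 did not pass edgeR's quasi-likelihood test in either population: the log2 fold change was 0.90 ± 0.49 in LSK (SE, adjusted p = 0.9998) and 1.11 ± 0.80 in GMP (adjusted p = 0.54). Without KO-178 the GMP value was -0.10.

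Across all genes, the quasi-likelihood test of edgeR called 4 of 17238 genes between LSK KO and LSK CTRL at an adjusted p of 0.05 (0.0232% of those tested), and 487 had an unadjusted p under 0.05. In GMP 6 of 17290 genes were called (0.0347%), with 2387 at an unadjusted p under 0.05. Of the 5 genes not chosen by their levels (St6galnac3 to St6galnac6 and Mxra7), 0 were called in either population by edgeR, DESeq2 or limma-voom, and 0 had an unadjusted p under 0.05 by edgeR. All 9 genes passed the filter on low counts in LSK and 7 did in GMP, where St6galnac1 and Gm11735 did not, with 609 reads or more in KO-178 and at most 1 in any other library. BC018473, St6galnac1 and Gm11735 passed in LSK through the KO libraries alone. Every KO library lay above both CTRL libraries for 5 of the 9 genes in LSK, those of the chromosome 11 run, 4 of them chosen for it, against 7.56% of all genes tested, and for 0 of 9 in GMP, against 16.5%.

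The genes of the run did not keep one ratio between the 3 LSK KO libraries and GMP KO-178, the only GMP library high in them. BC018473 made 75.8%, 78.1% and 76.5% of the run's reads in the LSK KO libraries (95% Wilson intervals between 74.0% and 79.7%), against 93.7% in GMP KO-178 (93.5% to 93.9%). St6galnac2 made 16.3%, 15.4% and 17.0% in the LSK KO libraries and 2.31% in GMP KO-178. St6galnac1 made 5.41%, 4.74% and 4.30% in the LSK KO libraries and 2.72% in GMP KO-178. The 3 LSK KO libraries lay close together, and the intervals of GMP KO-178 did not reach theirs for these 3 genes. That GMP library thus carried relatively more BC018473. For Gm11735 the interval of GMP KO-178 met those of LSK KO-1327 and KO-1333, and for Mxra7 that of LSK KO-1334. The intervals hold counting error alone, GMP is 1 library here, and the 2 populations were counted on different annotations. In the 6 remaining libraries St6galnac2 made 65.5% to 92.5% of the run's reads, which were 120 to 456 reads in all.

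**Figure D2:**
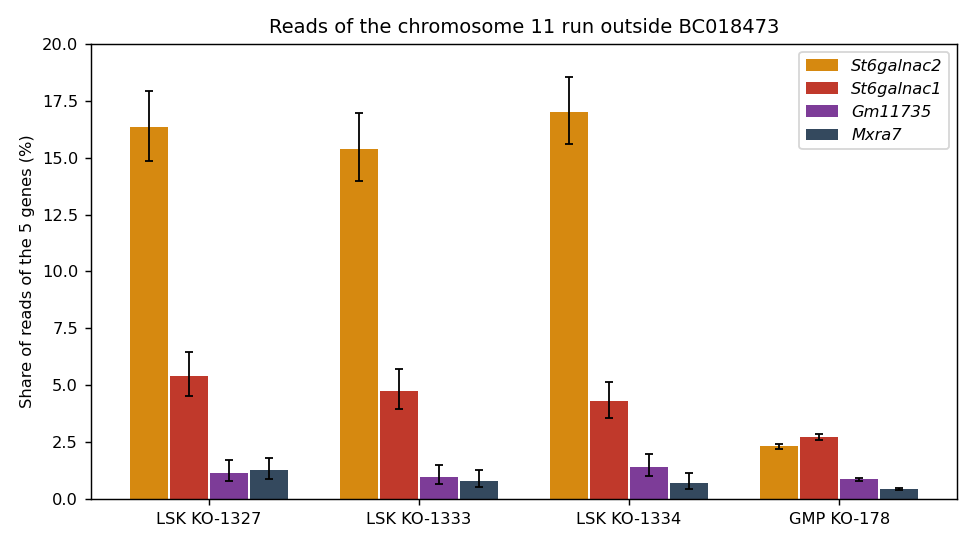
Share of the reads of the 5 chromosome 11 genes (percent, vertical axis) taken by each gene other than BC018473 in the 4 libraries that express the run, with 95% Wilson intervals. St6galnac2 takes 15.4% to 17.0% in the LSK KO libraries and 2.31% in GMP KO-178, and St6galnac1 4.30% to 5.41% against 2.72%.

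BC018473 was not highest where the fewest Dnmt3a reads remained. Those reads were counted over the whole gene, so they do not measure how far the allele was removed. GMP KO-352 had the lowest Dnmt3a of the 10 libraries (17.7 CPM) and 0.020 CPM of BC018473. GMP KO-178 and KO-179 had 44.7 and 57.4 CPM of Dnmt3a but 636 and 0.126 CPM of BC018473, and the LSK KO libraries had 57.8 to 65.5 CPM of Dnmt3a with BC018473 at 53.9 to 62.8 CPM. The share of reads outside annotated genes, which the GMP table lists, was 15.5% in KO-178, 16.1% in KO-179, 10.3% in KO-352, 8.50% in CTRL-346 and 14.2% in CTRL-350. KO-179, with 16 reads of BC018473, had a larger share than KO-178. By Xist and Y-linked counts the GMP libraries were all from males and LSK KO-1327 was too, while LSK KO-1333 and KO-1334 were from females. Both sexes were thus among the libraries with high BC018473. The part of Dnmt3a level, reads outside genes and sex in the BC018473 values was not tested.

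**Figure D3:**
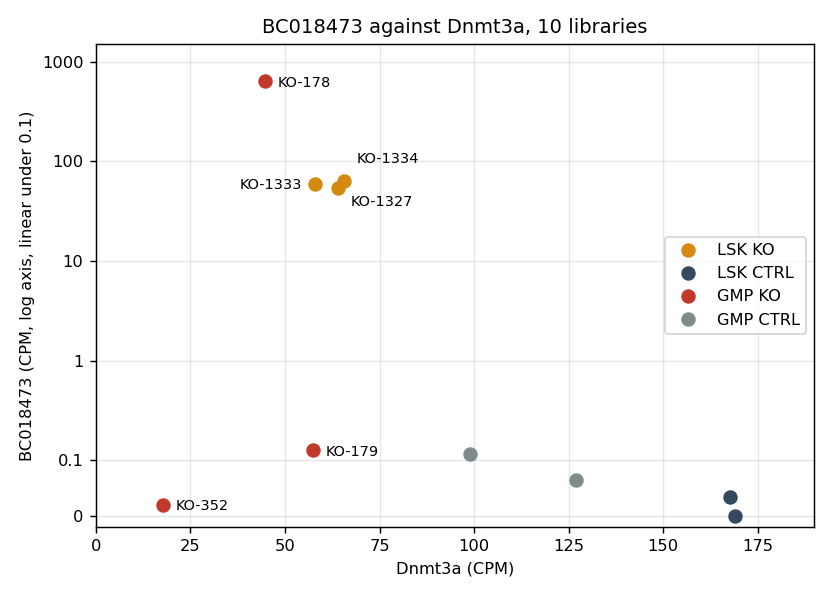
BC018473 (CPM, vertical log axis that is linear under 0.1) against Dnmt3a (CPM, horizontal axis), 1 point per library coloured by group, KO libraries named. GMP KO-352 has the lowest Dnmt3a, 17.7 CPM, with BC018473 at 0.020 CPM, and GMP KO-178 reaches 636 CPM at 44.7 CPM of Dnmt3a.

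No gene flanking the run was called between KO and CTRL. The window was measured from St6galnac1, here and for the 200 kb window below. Of 43 other annotated genes within 500 kb of that gene, 20 were tested in LSK and 21 in GMP. The quasi-likelihood test of edgeR called 0 in either, as did DESeq2 and limma-voom, with 1 at an unadjusted p under 0.05 in each population. Over all genes tested 0.0232% were called in LSK and 0.0347% in GMP, and 2.83% and 13.8% had an unadjusted p under 0.05, so a count of 0 among so few genes is close to the background. Their log2 fold changes ran from -0.77 to 0.92 in LSK (median -0.01, against 0.00 for all genes tested) and from -0.62 to 0.74 in GMP (median -0.09, against 0.01). The nearest expressed genes were Prcd, 1810032O08Rik and Rhbdf2 before the run and Jmjd6, Mettl23 and Srsf2 after it. Srsf2, a splicing factor, had log2 fold changes of 0.09 ± 0.09 in LSK and -0.04 ± 0.10 in GMP (SE), and Jmjd6, a nuclear dioxygenase, had 0.17 ± 0.18 and -0.13 ± 0.12. Rhbdf2, an inactive rhomboid protein that helps to mature the shedding protease of TNF, had 0.01 ± 0.12 in LSK and -0.04 ± 0.20 in GMP. Mettl23 was at 27.4, 26.2 and 29.4 CPM in the LSK KO libraries against 35.7 and 32.8 CPM in LSK CTRL-1326 and CTRL-1330. Its log2 fold changes were -0.31 ± 0.11 in LSK (adjusted p = 0.9998 by edgeR's quasi-likelihood test) and -0.54 ± 0.35 in GMP (adjusted p = 0.51).

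The non-coding gene 1810032O08Rik runs on the plus strand and overlaps the end of St6galnac2 by 497 bases. It was at 13.3, 13.4 and 21.8 CPM in the LSK KO libraries against 10.3 and 16.1 CPM in LSK CTRL-1326 and CTRL-1330. GMP levels were 23.1 CPM in KO-178, 15.7 CPM in KO-179 and 13.2 CPM in KO-352 against 8.36 and 12.4 CPM in CTRL-346 and CTRL-350. Its log2 fold change in GMP was 0.74 ± 0.29 (SE, adjusted p = 0.35 by edgeR's quasi-likelihood test), the highest of the neighbours tested there. The kit marks strand, but no source used here gives the strand setting, so reads of these overlapping genes may not be fully separated.

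**Figure D4:**
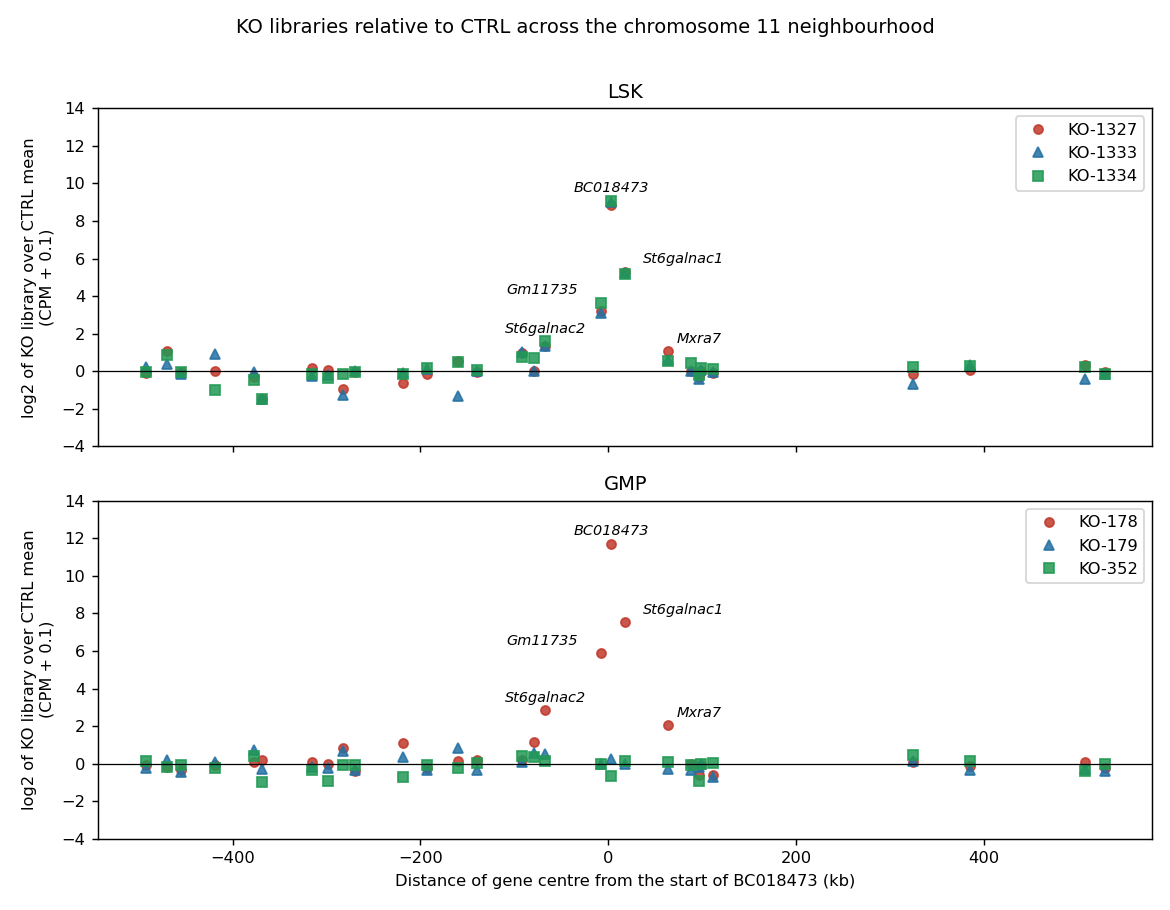
Log2 of each KO library's CPM over the mean of the CTRL libraries (0.1 added to both, vertical axis) for genes with at least 10 reads in a library, by distance of the gene's centre from the start of BC018473 (kb, horizontal axis), LSK above and GMP below. The genes of the run stand above the line in all 3 LSK KO libraries and in GMP KO-178, and the flanking genes lie around 0.

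The 4 family members on other chromosomes did not differ detectably between KO and CTRL. St6galnac4, the most abundant of the family per exon length, was at 95.6, 110.1 and 92.8 CPM in the LSK KO libraries against 88.7 and 96.1 CPM in LSK CTRL-1326 and CTRL-1330. In the GMP libraries it was at 74.9 CPM in KO-178, 69.6 CPM in KO-179 and 98.8 CPM in KO-352 against 108 and 67.5 CPM in CTRL-346 and CTRL-350. The groups overlapped in both, with log2 fold changes of 0.11 ± 0.09 in LSK (SE, adjusted p = 0.9998 by edgeR's quasi-likelihood test) and -0.12 ± 0.23 in GMP (adjusted p = 0.85).

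St6galnac6, its ganglioside-acting neighbour on chromosome 2, was at 50.8, 53.7 and 60.3 CPM in the LSK KO libraries against 49.6 and 51.4 CPM in LSK CTRL-1326 and CTRL-1330. In GMP it was at 30.4 CPM in KO-178, 32.0 CPM in KO-179 and 46.8 CPM in KO-352 against 47.9 and 39.2 CPM in CTRL-346 and CTRL-350. The groups overlapped in both, and the log2 fold changes were 0.12 ± 0.10 in LSK (SE, adjusted p = 0.9998 by edgeR's quasi-likelihood test) and -0.26 ± 0.21 in GMP (adjusted p = 0.58). With a library left out the LSK value ran from 0.05 (without KO-1334) to 0.18 (without KO-1327), and the GMP value from -0.48 (without KO-352, adjusted p = 0.11) to -0.11 (without CTRL-346).

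St6galnac3 was at 13.1, 14.8 and 12.6 CPM in the LSK KO libraries against 14.1 and 9.77 CPM in LSK CTRL-1326 and CTRL-1330. GMP levels were 1.88 CPM in KO-178, 2.32 CPM in KO-179 and 1.01 CPM in KO-352 against 0.885 and 2.05 CPM in CTRL-346 and CTRL-350. The KO and CTRL groups overlapped in each population, and every LSK library lay above every GMP library. The KO log2 fold change was 0.18 ± 0.18 in LSK (SE, adjusted p = 0.9998 by edgeR's quasi-likelihood test) and 0.25 ± 0.50 in GMP (adjusted p = 0.85).

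St6galnac5 was at 0.922, 0.718 and 0.711 CPM in the LSK KO libraries against 1.23 and 0.933 CPM in LSK CTRL-1326 and CTRL-1330. In the GMP libraries it was at 0.124 CPM in KO-178, 0.157 CPM in KO-179 and 0.061 CPM in KO-352 against 0.076 and 0.240 CPM in CTRL-346 and CTRL-350. Every LSK KO library lay below both CTRL libraries, a pattern whose share among all genes was not counted. The log2 fold change in LSK of -0.46 ± 0.38 (SE) did not pass the quasi-likelihood test of edgeR (adjusted p = 0.9998). That in GMP of -0.46 ± 0.74 did not pass this test either (adjusted p = 0.81). The GMP values rest on 39 reads in KO and 30 reads in CTRL, and Pigk and 3 other genes overlap St6galnac5 on the opposite strand.

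Between the populations, St6galnac3 and St6galnac5 were higher in LSK than in GMP, in KO and in CTRL alike. In a fit of all 10 libraries over the shared gene IDs, St6galnac3 was higher in LSK by a log2 difference of 2.56 ± 0.37 in KO (SE, adjusted p = 1.66e-04 by edgeR's quasi-likelihood test) and 2.64 ± 0.46 in CTRL (adjusted p = 7.26e-04). St6galnac5 was higher by 2.35 ± 0.53 in KO (adjusted p = 0.00286) and 2.38 ± 0.63 in CTRL (adjusted p = 0.00904). Such differences were common: 60.9% of 18836 genes were called between LSK and GMP in KO and 55.4% in CTRL. Population and sequencing depth go together here, and the 2 populations were counted on different annotations.

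St6galnac4, St6galnac6 and Mxra7 were not called between the populations in KO or in CTRL. St6galnac2 was chosen for its rise in KO libraries over CTRL, so its values here are a description and no test of it is given. In CTRL the log2 differences, LSK minus GMP, were -0.30 ± 0.21 for St6galnac4, -0.16 ± 0.19 for St6galnac6, -1.12 ± 0.81 for Mxra7 and 0.74 ± 0.76 for St6galnac2 (SE). The estimate of spread took in all 10 libraries, GMP KO-178 among them. Without KO-178 the CTRL difference was 0.75 for St6galnac2 and -1.12 for Mxra7 (adjusted p for Mxra7 = 0.0826 by edgeR's quasi-likelihood test). St6galnac4 was called in CTRL when GMP CTRL-350 was left out, at -0.62 (adjusted p = 0.0262 by edgeR's quasi-likelihood test). In KO, leaving out GMP KO-352 called St6galnac6 at 0.44 (adjusted p = 0.00759) and Mxra7 at -1.64 (adjusted p = 0.0426), and leaving out KO-179 called Mxra7 at -1.72 (adjusted p = 0.0254).

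The KO log2 effect in LSK minus that in GMP was tested in the same fit. Of the 5 genes not chosen by their levels 0 were called by edgeR and 0 had an unadjusted p under 0.05. Over all genes 5 of 18836 were called (0.0265%), and 1894 had an unadjusted p under 0.05. For the 4 genes on other chromosomes it was -0.08 ± 0.56 for St6galnac3, 0.20 ± 0.28 for St6galnac4, -0.02 ± 0.996 for St6galnac5 and 0.36 ± 0.25 for St6galnac6 (SE). For Mxra7 it was -0.23 ± 1.03 (SE), and 0.98 without KO-178. No fitted difference is given for the 4 genes chosen by their levels.

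Set in order per kb of exon, the family in LSK CTRL ran from St6galnac4 (14.3 ± 0.81 CPM per kb, SD, n = 2) and St6galnac6 (10.5 ± 0.27) through St6galnac3 (1.33 ± 0.34) and St6galnac2 (0.78 ± 0.18) to St6galnac5 (0.18 ± 0.03), with St6galnac1 at 0. In LSK KO the order was St6galnac4 (15.3 ± 1.4, n = 3), St6galnac6 (11.4 ± 1.0), St6galnac2 (2.15 ± 0.23), St6galnac1 (1.53 ± 0.07), St6galnac3 (1.5 ± 0.12) and St6galnac5 (0.131 ± 0.02). St6galnac1 and St6galnac3 in LSK KO were within their spread of each other, and the other neighbours in that order were apart by more than 1 SD of each.

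In GMP CTRL the order per kb was St6galnac4 (13.6 ± 4.4 CPM per kb, SD, n = 2), St6galnac6 (9.05 ± 1.3), St6galnac2 (0.359 ± 0.12), St6galnac3 (0.163 ± 0.09) and St6galnac5 (0.026 ± 0.02), with St6galnac1 at 0. Neighbours in that order were apart by more than 1 SD of each, though only just for St6galnac4 and St6galnac6, and each group has only 2 libraries. In GMP KO-178 alone St6galnac4 was at 11.6 CPM per kb, St6galnac1 at 7.72, St6galnac6 at 6.32, St6galnac2 at 2.71, St6galnac3 at 0.209 and St6galnac5 at 0.021. In that library, which has no replicate of its pattern, St6galnac1 stood between the 2 genes of chromosome 2.

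**Figure D5:**
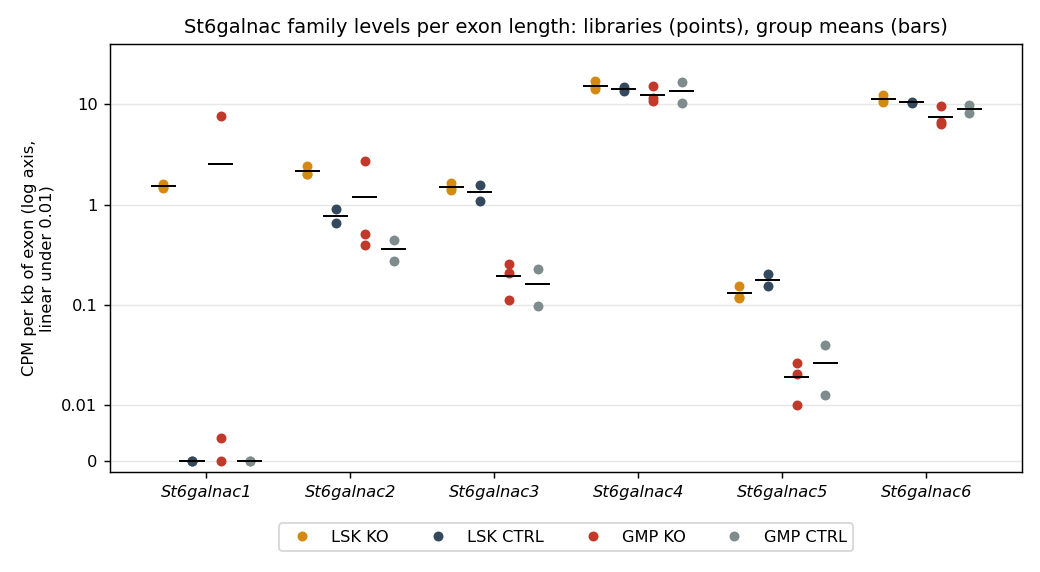
CPM per kb of exon (vertical log axis that is linear under 0.01) of the 6 St6galnac genes, 1 point per library and a bar at the mean of each group. St6galnac4 and St6galnac6 have the highest means in all groups, St6galnac3 and St6galnac5 are higher in LSK than in GMP, and St6galnac1 has reads in the LSK KO libraries and in GMP KO-178, with 1 read in KO-352.

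The wider pathway was described from 6 lists of 76 distinct genes: the other sialyltransferases, sialic acid supply and removal, O-glycan initiation and cores, ganglioside synthesis, Siglec receptors, and mucins with sialomucin carriers. Of 57 list genes tested in each population, 0 were called between KO and CTRL by edgeR's quasi-likelihood test, against 0.0232% of all genes in LSK and 0.0347% in GMP. An unadjusted p under 0.05 was seen for 0 of the 57 in LSK, against 2.83% of all genes, and for 17 (29.8%) in GMP, against 13.8% of all genes. DESeq2 called 0 in LSK and 6 in GMP, where it called 654 genes in all, and limma-voom called 0 list genes in both. The list medians of the KO log2 fold change ran from -0.14 to 0.01 in LSK (0.00 for all genes tested) and from -0.35 to 0.13 in GMP (0.01). In GMP the other sialyltransferases had the lowest median, -0.35, with 2 of 9 members above 0.

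Of these genes, St3gal6, which caps galactose with sialic acid, was at 0.784 CPM in KO-178, 0.550 CPM in KO-179 and 0.182 CPM in KO-352 against 0 and 0.063 CPM in CTRL-346 and CTRL-350. Those levels rest on 82, 70 and 18 reads in KO and 0 and 6 reads in CTRL. The 3 KO libraries lay above both CTRL libraries, as for 16.5% of all genes tested in GMP. The log2 fold change of St3gal6 was 3.95 ± 1.17 (SE, adjusted p = 0.31 by edgeR's quasi-likelihood test). St3gal3, of the same list, was at 9.21, 9.07 and 11.8 CPM in GMP KO against 15.0 and 13.4 CPM in GMP CTRL (-0.50 ± 0.18, adjusted p = 0.34). Galnt10, which starts O-glycans by adding the sugar that St6galnac enzymes act on, was at 16.5, 14.1 and 17.5 CPM in those GMP KO libraries against 30.8 and 31.4 CPM in GMP CTRL (-0.95 ± 0.14, adjusted p = 0.19). Galnt12, of the same family, had a log2 fold change of 1.05 ± 0.33 in GMP (adjusted p = 0.31).

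Among the receptors of sialic acid, Siglecf, known from eosinophils, was at 41.1 CPM in KO-178, 46.2 CPM in KO-179 and 43.9 CPM in KO-352 against 59.7 and 66.3 CPM in GMP CTRL-346 and CTRL-350 (log2 fold change -0.53 ± 0.11, SE, adjusted p = 0.26 by edgeR's quasi-likelihood test). The 10 mast cell, basophil and eosinophil markers summed to 897 to 1173 CPM in GMP KO and 1501 to 3973 CPM in GMP CTRL, with Tpsb2 at 0 in all GMP KO libraries, and their part in the Siglecf values was not tested. Siglece, an inhibitory receptor of myeloid cells, was at 14.05, 10.3 and 7.54 CPM in GMP KO against 4.48 and 5.53 CPM in GMP CTRL (1.09 ± 0.29, adjusted p = 0.29). Selplg, the sialomucin ligand of selectins, had -0.57 ± 0.14 in GMP (adjusted p = 0.27) and -0.16 ± 0.09 in LSK (adjusted p = 0.9998). Muc1, a membrane mucin and a known carrier of sialyl-Tn, averaged 0.346 ± 0.20 CPM in GMP KO and 0.059 ± 0.04 CPM in GMP CTRL (SD, n = 3 and 2, adjusted p = 0.31 by edgeR).

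Between the populations the lists held called genes, against a background of 55.4% of all genes called in CTRL. In the test within CTRL, 6 of 11 sialyltransferases outside the family were higher in LSK and 2 lower, and of 10 mucins and carriers 6 were higher and 2 lower. Of 8 genes of sialic acid supply and removal 1 was higher and 4 lower, and of 18 O-glycan genes 4 were higher and 4 lower. Of 9 ganglioside genes 3 were higher and 2 lower, and of 9 Siglecs 5 were higher and 4 lower. St3gal1, a core 1 sialyltransferase that makes a substrate of St6galnac3 and St6galnac4, averaged 85.5 ± 0.58 CPM in LSK CTRL and 24.0 ± 5.5 CPM in GMP CTRL (SD, n = 2 each), a log2 difference of 1.45 ± 0.16 (SE, adjusted p = 4.48e-05 by edgeR's quasi-likelihood test). Muc13, a membrane mucin, averaged 390.5 ± 19.7 CPM in LSK CTRL and 96.98 ± 10.4 CPM in GMP CTRL (1.63 ± 0.10, adjusted p = 1.16e-06). Neu1, the lysosomal sialidase, was lower in LSK, at 27.9 ± 4.9 CPM in LSK CTRL and 94.8 ± 3.5 CPM in GMP CTRL (-2.15 ± 0.16, adjusted p = 3.89e-06). B4galt6, which makes the lactosylceramide from which gangliosides are built, was lower too (-2.86 ± 0.20, adjusted p = 2.40e-06).

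The genes most like BC018473 over the 10 libraries, by Pearson's r of log2(CPM + 0.5), were sought among 18380 gene IDs with at least 50 reads. The run's own genes had r of 0.99 (St6galnac1), 0.96 (St6galnac2), 0.94 (Gm11735) and 0.63 (Mxra7). St6galnac1, St6galnac2 and Gm11735 were chosen, like BC018473, for being high in some KO libraries. Their high r follows from that choice and is no finding about them. The family members elsewhere had r between -0.30 and 0.31. Outside the set the 5 highest were Fancc (0.88), Gm26064 (0.87), Slc29a2 (0.84), Slc38a2 (0.79) and 1700055D18Rik (0.79), none of them on chromosome 11. These followed in small steps only: Fancc, a DNA repair gene, was at 34.2, 33.4 and 34.02 CPM in the LSK KO libraries against 29.2 and 29.8 CPM in LSK CTRL. In GMP it was at 26.3 CPM in KO-178, 20.9 CPM in KO-179 and 21.7 CPM in KO-352 against 22.1 and 24.2 CPM in CTRL-346 and CTRL-350. Its KO log2 fold change was 0.20 ± 0.10 in LSK (SE, adjusted p = 0.9998 by edgeR's quasi-likelihood test) and -0.01 ± 0.15 in GMP (adjusted p = 0.98). The points share library, depth and group, so r is a description. Without KO-178, 0 of these 5 were among the 5 highest, and leaving out another library kept 1 to 4 of them.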

How the data were processed

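RNA-seq of 10 sorted libraries was described, grouped by the genotype and population in their titles. Per the labels' protocols, a stranded total RNA kit with ribosomal RNA removal was used. The raw tables that the authors deposited hold whole-number counts per Ensembl gene. The submitters' processing notes name, without roles or order, DESeq2 1.4.5, DESeq 1.18.0, HTSeq 0.5.3p3 and STAR, and the build mm10 (GRCm38); how strand was set and which annotation release was used are not given in the sources used. The deposited normalized tables hold a signal equal to the counts divided by 1 size factor for each library (99.918% or more of the genes agreed to 0.1%), and served only as an alternative scaling.

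Symbols and coordinates are from GENCODE M21 (GRCm38), which held 37607 of 38924 GMP and 44671 of 45513 LSK gene IDs. Lines that name no gene entered neither library sizes nor tests: in GMP, reads outside genes made 8.50% to 16.1% of listed reads. Counts were tested with edgeR 4.0.16 in R 4.3.3 (filterByExpr with a minimum count of 10, TMM, the two-sided quasi-likelihood test, Benjamini-Hochberg adjustment, threshold 0.05), with LSK and GMP fitted separately and all 10 libraries together for LSK against GMP. CPM uses TMM library sizes of each population, so levels set across populations come from separately scaled tables. SE is the size of the log2 fold change over the root of its F statistic. Ratios of pooled counts have 95% exact intervals, shares have 95% Wilson intervals, and a group at 0 was set at a floor of 3 reads over the group. Scripts were tested on simulated counts. DESeq2 1.42.0 and limma 3.58.1 gave alternatives.

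Members and gene lists were chosen with earlier results of these data known. Genes were named by rule: Dnmt3a, every member, the 3 nearest expressed genes on each side of the run, the 2 list members with the smallest p in each comparison, and the 5 genes most like BC018473; not all of these are given values. Apart from the title numbers nothing in the labels says that libraries come from separate animals, so p-values reflect only differences among these libraries. No pair of libraries of one group agreed within sampling noise.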

Additional observations from a re-analysis of the deposited data

How the results depend on the processing

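No paired analysis was possible because the title numbers are not shared between groups. The genes called between GMP KO and GMP CTRL were 6, against 654 by DESeq2, 0 by limma-voom, 50 without a filter on low counts, 182 in the joint fit, 205 with reads outside genes (their share) as a covariate, and 1 to 172 with a library left out (172 without KO-352). List genes called there numbered 6, 1, 1 and 3 by DESeq2, without the filter, in the joint fit and with the covariate, and 0 to 2 with a library left out. Between LSK KO and LSK CTRL the 4 calls became 19 by DESeq2, 27 without the filter, 0 in the joint fit and 3 to 11 with a library left out (11 without CTRL-1326, 7 without KO-1333). For the difference of KO effects the 5 calls became 188 by DESeq2, 2 by limma-voom, 38 without the filter and 1 to 513 with a library left out (513 without KO-352), and list genes called numbered 2 by DESeq2 and 0 to 6 with a library left out. Neighbours of the run called between LSK and GMP numbered 10 in KO and 11 in CTRL; within 200 kb they were 4 in each, and with a library left out 7 to 11 and 6 to 12. The neighbours tested between LSK and GMP were 26 within 500 kb and 10 within 200 kb. Over all genes 60.9% were called in KO and 55.4% in CTRL. Of the 5 genes most like BC018473, Spearman's rho kept 0 and leaving out a library kept 0 to 4.

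Of 334 results for single genes under an alternative, 306 kept direction and side of the threshold, 24 changed direction and 4 passed it; all 72 levels kept within their spread. Log2 fold changes, KO over CTRL in GMP, ran with a library left out from -0.10 to 1.51 for Mxra7, -0.24 to 0.96 for St6galnac3, -0.43 to 0.26 for St6galnac4 and -1.06 to 0.58 for St6galnac5; the low end for Mxra7 is without KO-178. With the covariate St6galnac3 was -0.24, St6galnac4 0.16 and St6galnac6 -0.068. In LSK, St6galnac3 ran from -0.063 to 0.47. The difference of KO effects ran from -0.79 to 0.39 for St6galnac3, -0.18 to 0.52 for St6galnac4, -1.05 to 0.57 for St6galnac5 and -0.62 to 0.98 for Mxra7; by limma-voom Mxra7 was 0.19. LSK minus GMP ran from -0.62 to 0.084 in CTRL and -0.19 to 0.089 in KO for St6galnac4. The cause of these changes was not tested. With 3 reads as the floor, a gene was not detectable under 0.097 to 0.103 CPM in an LSK library and 0.024 to 0.032 CPM in a GMP library.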

Other observations

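Genes at 1 CPM or more in a library and at least 10-fold above every other library of its population were counted, a rule chosen after the values were seen. GMP KO-178 had 6 such genes and GMP KO-179 had 7, against 0 in GMP KO-352, 3 in CTRL-346 and 1 in CTRL-350. In KO-178 the 3 highest of the 6 were BC018473, St6galnac1 and Gm11735, followed by the pseudogene Eif3s6-ps2 at 4.57 CPM and the antibody genes Ighg3 and Iglv2 at 2.25 and 1.21 CPM. In KO-179 the highest was the antibody variable segment Ighv3-6 at 3.03 CPM, and 5 others of the 7 were antibody variable segments too; Tdrd5, a germline gene, was at 1.56 CPM there. In LSK the count was 0 in KO-1327 and 1 in each of the other LSK KO libraries, against 2 in CTRL-1326 and 1 in CTRL-1330, and none of these was on chromosome 11.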
